A study of Rattus norvegicus with 6 samples.

Results

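The abundance profile described here is that of fracture tissue from osteoporotic rats whose fracture was given gel only (Gel, 3 libraries). Its members are the protein-coding genes outside the mitochondrial chromosome with at least 1 FPKM (fragments per kilobase of gene length and per M, or mega, of a library size) in all 3 Gel libraries. They number 11247 of the 22237 protein-coding genes outside the mitochondrial chromosome, in tables of 34538 genes. Counts of list genes that are members are to be read against that share. Counts of members whose highest library was over 2 times the lowest are to be read against 10.9% of all members. The levels themselves chose the members, so levels are given as a description and no test was made.

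The tissue came from female Sprague Dawley rats, an outbred stock, that had both ovaries removed at 8 weeks of age. The midshaft of the left femur was cut 12 weeks later and held with an intramedullary nail of 1.2 mm, and gel without MgPA was injected around the aligned ends. Femur over a length of 1 cm at the fracture was used for RNA, and poly-T beads selected the mRNA. The series holds 6 libraries. The other 3 came from fractures given MgPA-Gel in rats of the same ovariectomized model, and they are not compared here. Rats with intact ovaries and unbroken femur are not analysed here either, so the profile shows neither what ovary removal nor what the break changed. When the tissue was harvested is not stated. The labels do not say whether the 3 Gel libraries came from separate animals, so the spread between them may be technical.

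A healing fracture is rebuilt by cells of several origins. Periosteal and marrow progenitors lay down a collagen matrix, osteoblasts mineralize it, chondrocytes form a temporary cartilage callus where the gap moves, and osteoclasts, which fuse from cells of the monocyte line, resorb bone and cartilage. Loss of oestrogen shifts this balance toward resorption, which is why ovariectomy is used as a model of osteoporosis after the menopause. In RNA from whole tissue, fewer cells of a type and less RNA per cell cannot be told apart.

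Total counts were 16.2, 15.8 and 13.6 M in Gel 1, 2 and 3, and members took 73.4%, 88.4% and 88.1% of them. The share of mitochondrial-chromosome genes among all counts was 24.0% in Gel 1, 8.64% in Gel 2 and 8.83% in Gel 3. Log2 FPKM of the members correlated between pairs of libraries with Pearson's r of 0.969 (Gel 1 and 2), 0.957 (Gel 1 and 3) and 0.948 (Gel 2 and 3), across genes that are not independent of each other. The libraries differed beyond sampling noise in every pair (chi-square per gene of 44.8 to 91.0), so none is a second copy of another. The deposited FPKM rests on size factors, and on that scale the median member deviated from its own mean over the libraries by 0.0011, -0.0049 and -0.00069 log2 units in Gel 1, 2 and 3. Scaling each library to a sum of 1 M over all genes (TPM), the mitochondrial ones included, moved those medians to -0.32, 0.19 and 0.13. On the deposited scale Gel 1, 2 and 3 were the highest library for 32.4%, 31.1% and 36.4% of all members and the lowest for 31.1%, 31.8% and 37.1%. With TPM they were the highest for 3.23%, 54.1% and 42.7% and the lowest for 81.8%, 4.83% and 13.4%, and counts of members by library are to be read against these shares. Statements on which library was highest or lowest are relative to the median member, and those that turn under TPM are marked.

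A few genes held much of the profile. The mean level ran from 1.06 to 11651 FPKM, with a median of 10.1. It was at least 10 FPKM in 5665 members, at least 100 FPKM in 640 and at least 1000 FPKM in 52. Those 52 genes held 26.7 ± 1.62% of the members' summed FPKM (SD, n = 3, as for every ± below). The 100 highest members held 36.3%, 34.0% and 36.0% in Gel 1, 2 and 3, and the first 261, 311 and 285 genes together reached 50% of the sum. Of those 100 genes, 46 carry a description as ribosomal proteins, the subunits of the machine that makes protein.

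**Figure D1:**
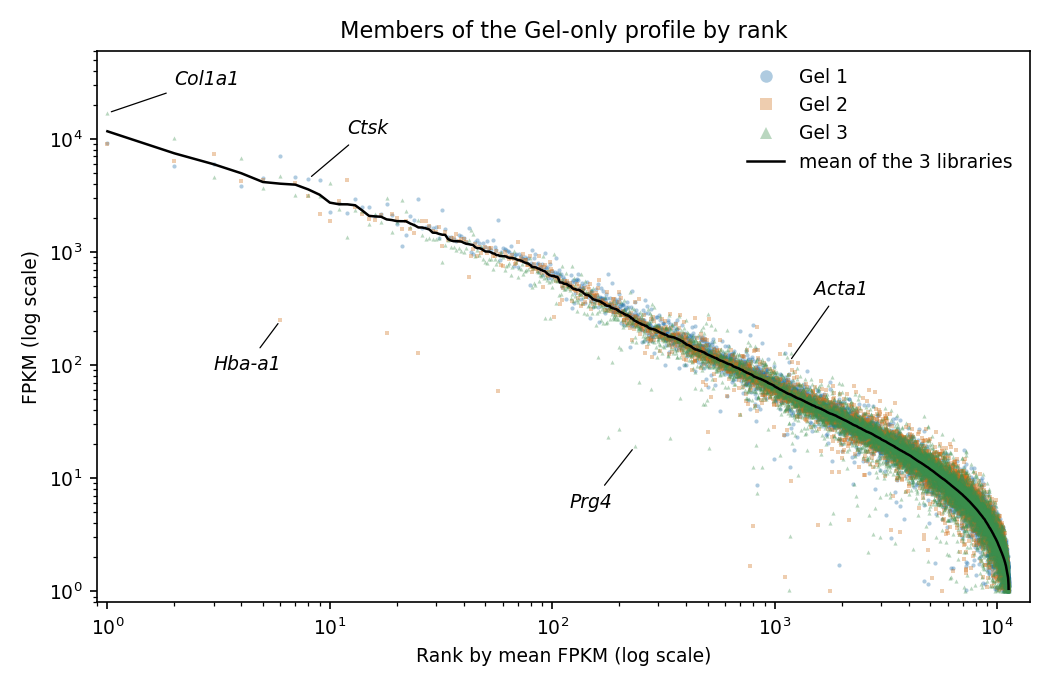
FPKM of every member in each Gel library (points) against its rank by mean FPKM, both on log scales, with the mean of the 3 libraries as a line. Most points lie close to the line, while single libraries of Hba-a1 (249 FPKM in Gel 2), Prg4 (19.1 FPKM in Gel 3) and other genes lie far below it.

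At the threshold, the members whose lowest library was nearest above 1 FPKM were Runx1t1 (1.02, 1.00 and 2.12 FPKM in Gel 1, 2 and 3), Zfhx3 (1.15, 1.42 and 1.00) and Angptl1 (4.41, 1.00 and 24.6). Nearest below it lay Rbm47 (2.42, 4.96 and 1.00 FPKM, the last one just under the threshold), Unc13d (3.14, 2.67 and 1.00, likewise) and Etv4 (1.48, 2.13 and 0.999). Of the 10990 protein-coding genes that are not members, 9521 reached 1 FPKM in no library, 786 in 1 library and 683 in 2 libraries.

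Matrix of bone led the ranking. Col1a1, the alpha 1 chain of type I collagen and the main protein of bone, was the most abundant member, at 9127, 8954 and 16873 FPKM in Gel 1, 2 and 3. Alone it took 2.01%, 2.12% and 3.91% of the members' FPKM. Gel 3 stood apart at 1.88 times the lowest library. Sparc (osteonectin), a collagen-binding glycoprotein of bone, had rank 2 at 5763, 6343 and 10224 FPKM. Col3a1, the chain of type III collagen that abounds in young repair tissue, had rank 4 at 3819, 4274 and 6793 FPKM. All 3 genes were highest in Gel 3, also with TPM. In the coordinates of the deposited table, whose build no source here names, Col1a1 lies on chromosome 10 from 82745801 to 82762789 and Sparc on chromosome 10 from 40742400 to 40764185.

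The other places among the first 10 went to genes of cells rather than of matrix, apart from Spp1. Tmsb4x, which binds actin monomers, had 5939, 7342 and 4616 FPKM, and Eef1a1, the elongation factor of translation, 4493, 4283 and 3685 FPKM. The light chain of ferritin, Ftl1, stood at 4557, 4081 and 3164 FPKM, and Cst3 (cystatin C), an inhibitor of cysteine cathepsins, at 2233, 1882 and 4074 FPKM. Unlike these, the alpha globin gene Hba-a1 reached rank 6 through Gel 1 and Gel 3, with 7113, 249 and 4669 FPKM in Gel 1, 2 and 3. Its highest library was 28.5 times its lowest, and its mean of 4010.3 ± 3479 FPKM describes no single library. Spp1 and Ctsk, the remaining genes of the first 10, are described with bone and with osteoclasts below. Under ranking by the median library, or without any 1 library, 28 or more of the first 30 genes were shared with the ranking used here.

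Promoter letters of the highest members were read from RefSeq (build GRCr8), which gives 250 bases before to 50 bases after each gene's annotated start. Of the 100 highest members, 72 were matched by symbol to 1 entry. The letters TATAAA, the core of the TATA box to which the basal transcription machinery can bind, stood on either strand in 16 of those 72 windows (22.2%, Wilson 95% interval 14.2 to 33.1%). Members ranked after 100 held them in 505 of 8016 windows (6.30%). All 33469 promoters of the table, which include those of genes that are not protein-coding, held them in 14.2%, and its 21842 protein-coding promoters in 13.0%. Within the 60 bases before the start, on the strand of the gene, the counts were 11 of 72 (15.3%) and 125 of 8016 (1.56%). The shares were 2.61% of all promoters and 2.94% of protein-coding ones. CCAAT, searched on both strands, stood in 37.5% of the windows of the 100 highest and 37.7% of those of later members, and GGGCGG in 56.9% and 64.7%. All promoters held CCAAT and GGGCGG in 37.5% and 33.1%, and protein-coding promoters in 38.0% and 41.8%. Matches of different motifs were counted separately and may share letters. The median share of G and C was 58.0% in the windows of the 100 highest and 61.3% in those of later members. A match is a run of letters, not a bound site.

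The 60 bases before the annotated start are shown, 5′ to 3′ on the gene's strand, for genes that the levels below turn on: the alpha globin pair, 3 matrix genes of bone repair and a ribosomal gene. Capitals mark TATAAA, and Sparc is shown as one of the highest genes without it.
Hba-a1: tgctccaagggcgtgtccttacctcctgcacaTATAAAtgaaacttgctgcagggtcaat
Hba-a2: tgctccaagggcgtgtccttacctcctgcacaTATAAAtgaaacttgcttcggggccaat
Bglap: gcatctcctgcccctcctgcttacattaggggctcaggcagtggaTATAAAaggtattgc
Mmp13: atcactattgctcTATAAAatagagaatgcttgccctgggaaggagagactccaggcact
Postn: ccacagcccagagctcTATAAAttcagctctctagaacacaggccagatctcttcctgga
Rplp0: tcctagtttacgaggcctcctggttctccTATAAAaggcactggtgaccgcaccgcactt
Sparc: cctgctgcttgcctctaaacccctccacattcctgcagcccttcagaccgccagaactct
The globin windows, at chr10:15842581-15842640 and chr10:15829139-15829198 on the minus strand, carry the same letter at 57 of 60 positions. Bglap (chr2:176137319-176137378), Rplp0 (chr12:46718391-46718450) and Sparc (chr10:40038817-40038876) also lie on the minus strand, while Mmp13 (chr8:12782769-12782828) and Postn (chr2:140678001-140678060) on the plus strand. The first T of the motif lies 28 bases before the start in both globin genes, 31 in Rplp0, 15 in Bglap, 44 in Postn and 47 in Mmp13.

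Genes of the osteoblast lineage and of bone matrix were nearly all members, 20 of the 21 measured, with a median of 91.8 FPKM against 10.1 FPKM over all members. Spp1 (osteopontin), a phosphoprotein that anchors cells to mineral, had 4303, 2185 and 3122 FPKM in Gel 1, 2 and 3. Bglap (osteocalcin), made by mature osteoblasts, had 1121, 1607 and 2883 FPKM. Ibsp (bone sialoprotein), which nucleates mineral, had 1645, 598 and 1279 FPKM. The libraries thus held these 3 secreted proteins in different proportions: Gel 3 was highest for Bglap, Gel 1 for the other two, but Gel 3 for Ibsp with TPM. The collagenase Mmp13 was steadier, at 993, 769.8 and 999 FPKM. Col1a2, the second chain of type I collagen, was read at 609, 268 and 959 FPKM, far below Col1a1. NEWGENE_621351, a second record with the Swiss-Prot entry of Col1a2, had 1.97, 2.78 and 4.70 FPKM. A part of read assignment in the gap between the chains was not tested. Omd (osteomodulin) was listed at 0.

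The regulators and mineralizing enzymes of osteoblasts lay lower but in every library. Alpl, the alkaline phosphatase that frees phosphate for mineral, had 179, 132 and 273 FPKM, and Phospho1, a phosphatase of matrix vesicles, 62.6, 28.4 and 107 FPKM. Ifitm5, a membrane protein of osteoblasts, had 68.2, 48.5 and 142 FPKM. In these genes Gel 3 was highest, also with TPM, and Gel 2 lowest, where TPM has Gel 1 lowest for Alpl and Ifitm5. The transcription factors Runx2, which commits cells to the lineage, and Sp7, which acts after it, stood at 21.1, 12.4 and 19.1 FPKM and at 27.4, 14.9 and 37.7 FPKM.

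Over the whole bone list, Gel 3 was the highest library for 16 of 20 members and Gel 2 the lowest for 16. The median spread was an SD of 0.54 log2 units between libraries, against 0.21 over all members, and 11 of 20 (55.0%) differed over 2-fold between the highest and lowest library, against 10.9% of all members. The list's summed FPKM was 24291 in Gel 1, 21357 in Gel 2 and 37506 in Gel 3. With TPM, Gel 3 was the highest library for 18 of the 20, and Gel 1 became the lowest for 11.

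Enzymes that modify, fold and crosslink collagen were members in 21 of 21 cases, with a median of 72.4 FPKM. Serpinh1, the collagen chaperone HSP47, was the highest at 967, 1055 and 1438 FPKM. P4hb, a subunit of prolyl 4-hydroxylase, was at 497, 494 and 512 FPKM. Pcolce, which speeds removal of the collagen C-propeptide, had 355, 364 and 556 FPKM, and Ppib, an isomerase of the procollagen complex, 406, 399.9 and 449 FPKM. Plod2, a lysyl hydroxylase, stood at 168, 176 and 192 FPKM, and the crosslinking oxidase Lox at 151, 167 and 155 FPKM. Their median SD was 0.21 log2 units, close to that of all members and below that of the bone list, although Gel 3 was again highest for 16 of 21 (14 of 21 with TPM). Folding genes of the endoplasmic reticulum, members in 20 of 20 cases with a median of 116 FPKM, spread by 0.16 log2 units and none by over 2-fold (4 of 20 with TPM). Among them Calr (calreticulin) had 533, 551 and 481 FPKM, Pdia3 327, 377 and 409 FPKM, and Hspa5 (BiP), the sensor chaperone, 165, 279 and 235 FPKM.

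Of 11 measured markers of osteocytes, the cells enclosed in mineral, 9 were members. Their median was 9.52 FPKM, near the 10.1 FPKM of all members. Dmp1, which governs phosphate handling in osteocytes, led at 64.7, 45.5 and 86.6 FPKM. Mepe, a matrix phosphoglycoprotein, had 39.1, 17.1 and 43.0 FPKM, and Pdpn, a marker of osteocytes that are being embedded, 31.8, 49.7 and 38.6 FPKM. Sost, the Wnt antagonist sclerostin of mature osteocytes, reached 3.62, 2.42 and 2.30 FPKM. Fgf23, the phosphate hormone, was read in Gel 2 alone at 1.76 FPKM and listed at 0 in the other libraries, and Dkk1 was listed at 0 in all 3.

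Osteoclast genes were abundant, with 16 of 17 measured genes as members and a median of 40.6 FPKM. Ctsk (cathepsin K), the protease that digests bone collagen, had 4405, 3111 and 3194 FPKM in Gel 1, 2 and 3 and had rank 8 among all members. Acp5 (tartrate-resistant acid phosphatase) had 2091, 1581 and 1677 FPKM, and the gelatinase Mmp9 638, 391 and 359 FPKM. Jdp2, a bZIP factor needed for osteoclast formation in mice, had 208, 171 and 136 FPKM, and Car2, the carbonic anhydrase that supplies protons, 217, 90.8 and 124 FPKM. Atp6v0d2, a subunit of the proton pump, stood at 162, 92.2 and 71.7 FPKM. Each of these genes was highest in Gel 1, which with TPM held for Mmp9, Car2 and Atp6v0d2. Ctsk is also made by fibroblasts and stands in that list too.

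Gel 1 was the highest library for 15 of the 16 osteoclast members and Gel 3 the lowest for 13. Gel 1 was the highest for 15 of 16 also with TMM and with DESeq2 size factors. The deposited FPKM itself rests on DESeq2 size factors. TMM sizes differed from its library sizes by 1.65%, -0.10% and 0.49% in Gel 1, 2 and 3. Neither is thus a separate check of the order. The count was also 15 of 16 with totals that leave out mitochondrial-chromosome genes. The order turned under TPM, whose totals include those genes: Gel 1 was then the highest for 4 of 16, Gel 2 for 11, and the summed level of the list differed by 1.03 times between libraries, against 1.42 times on the deposited scale (8121, 5733 and 5766 FPKM). With totals that leave out the mitochondrial genes, of which Gel 1 had the highest share, the list's sums were 9524, 6888 and 6337 in Gel 1, 2 and 3, a ratio of 1.5. Dcstamp, needed for the fusion of osteoclast precursors, was read at 0, 0.0560 and 0.781 FPKM, while a second record with the same Swiss-Prot entry, LOC103690326, had 12.9, 9.70 and 12.3 FPKM.

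Of the 8 measured genes of the signals that drive osteoclast formation 7 were members. Csf1r, the receptor for the growth factor of the macrophage line, had 146, 109 and 98.2 FPKM, and its ligands Csf1 and Il34 had 19.8, 13.5 and 19.7 FPKM and 12.0, 10.3 and 11.6 FPKM. Tnfrsf11a (RANK) stood at 22.2, 16 and 13.8 FPKM and its decoy Tnfrsf11b (osteoprotegerin) at 3.48, 5.76 and 8.08 FPKM. Tnfsf11 (RANKL), the ligand of RANK, is not a member: it was read at 9.68 FPKM in Gel 1, 0.242 in Gel 2 and 0 in Gel 3. LOC103689974, a second record with its Swiss-Prot entry, had 0.289, 0.483 and 3.75 FPKM, so the record with the higher value was Tnfsf11 in Gel 1 and LOC103689974 in Gel 2 and Gel 3. No ratio of RANKL to osteoprotegerin is given for that reason.

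Proteases of matrix turnover and their inhibitors were members in 28 of 29 cases, with a median of 148 FPKM. Besides Ctsk and Mmp13, Ctsb (cathepsin B), a lysosomal protease, had 858, 968 and 946 FPKM. Timp1 and Timp2, inhibitors of metalloproteinases, had 955, 728 and 511 FPKM and 586, 618 and 699 FPKM. Ctsz, another cathepsin, had 894, 559 and 356 FPKM. Mmp3 and Mmp10, both stromelysins, had 427, 441 and 27.4 FPKM and 22.6, 20.9 and 2.37 FPKM, so Gel 3 was far below the other libraries in both. Of the 28 members 10 differed over 2-fold, against 10.9% of all members. Mmp11 was listed at 0.

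Genes of fibroblasts and of periosteal and skeletal progenitors were members in 24 of 25 cases, with a median of 166 FPKM. Lum (lumican), a small proteoglycan that spaces collagen fibrils, had 1408, 1882 and 2314 FPKM. Postn (periostin), a matrix protein of periosteum and callus, had 1088, 758 and 907 FPKM, Dcn (decorin) 749, 873 and 1015 FPKM, and Fn1 (fibronectin) 739, 1214 and 596 FPKM. Lepr, the leptin receptor that marks marrow stromal cells, lay near the threshold at 0.827, 0.740 and 1.63 FPKM and is not a member. Gel 3 was the highest library for 18 of the 24 (20 of 24 with TPM), with sums of 14895, 14710 and 19135 FPKM.

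Cartilage genes were members in 9 of 22 measured cases, against 11247 of 22237 protein-coding genes. Of the 9, 7 differed over 2-fold between libraries, against 10.9% of all members. Prg4 (lubricin), the joint lubricant, had 358, 365 and 19.1 FPKM, Col11a1 95.2, 137 and 271 FPKM, Fmod (fibromodulin) 98.2, 79.0 and 102 FPKM, and Comp 42.9, 11.4 and 56.8 FPKM. Acan (aggrecan), the main cartilage proteoglycan, had 20.8, 14.3 and 42.8 FPKM, and the chondrocyte factor Sox9 3.05, 2.77 and 5.35 FPKM. Col2a1, the collagen that defines cartilage, is not a member: it had 14.1 and 10.6 FPKM in Gel 1 and Gel 3 and 0.0765 in Gel 2. Col10a1, the collagen of hypertrophic chondrocytes, had 0.135, 0.0566 and 5.05 FPKM. Matn1 was listed at 0. Although the sums of the list lay within 1.08 times of each other (671, 652 and 621 FPKM; 1.39 times with TPM), the genes behind them differed: Gel 3 had the lowest Prg4 and the highest Col11a1, and was the one library with Col10a1 above 1 FPKM.

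**Figure D2:**
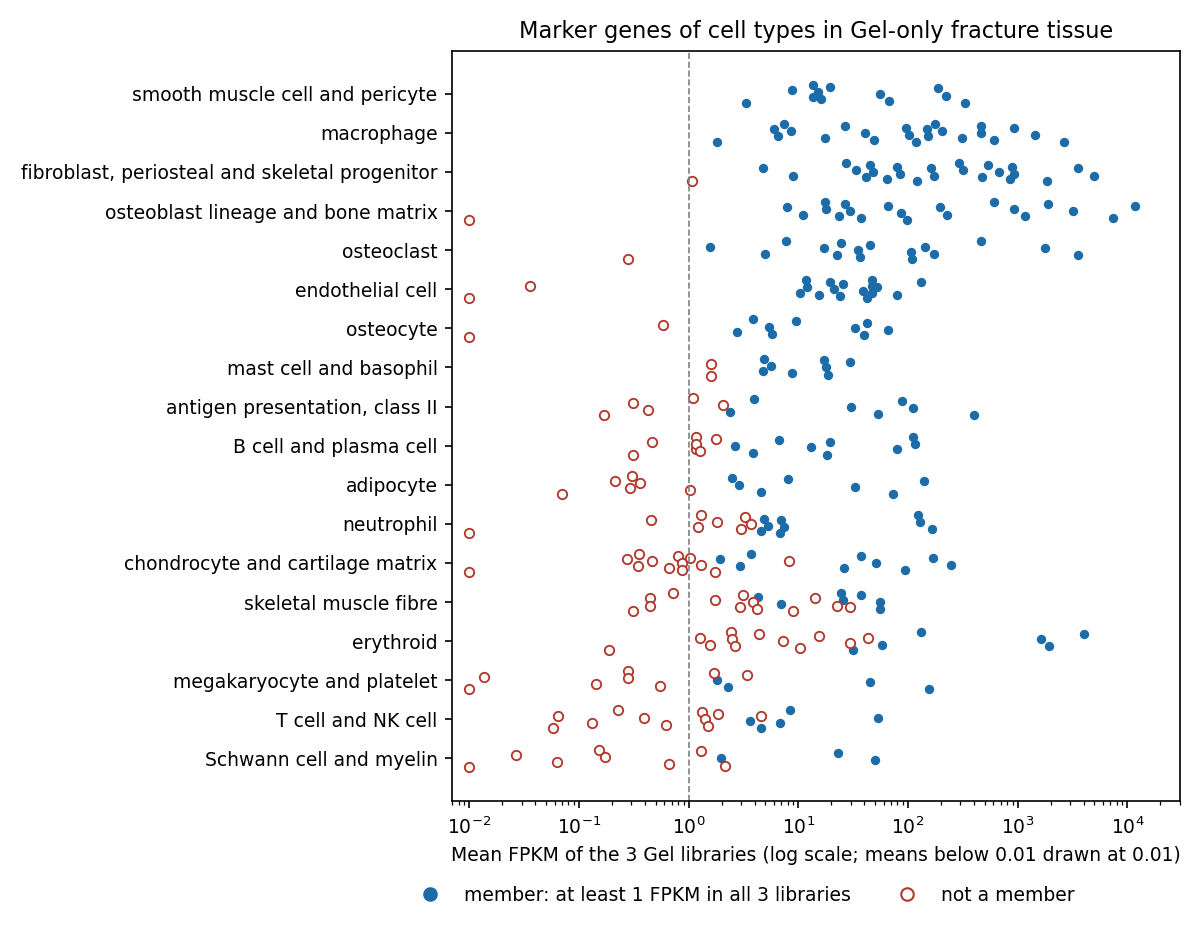
Mean FPKM over the 3 Gel libraries (log scale) of each measured gene in 18 lists of cell type markers, filled where the gene is a member and open where it is not; the dashed line marks 1 FPKM. Lists of mural, macrophage, fibroblast and bone genes are nearly all filled, while T cell, platelet and myelin genes mostly lie open below 10 FPKM.

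Of the vessel genes, those of endothelium were members in 16 of 18 cases, with a median of 32.1 FPKM. Plvap, of the diaphragms of fenestrated endothelium, had 146, 148 and 97.1 FPKM, Eng (endoglin) 93.0, 83.8 and 59.0 FPKM, and Cdh5, the cadherin of endothelial junctions, 48.2, 68.5 and 25.3 FPKM. Gel 3 was the lowest library for 15 of the 16 (10 of 16 with TPM). Cldn5 was listed at 0 and Robo4 lay below 0.1 FPKM in each library, although a second record with its Swiss-Prot entry, LOC100911068, had 2.09, 2.81 and 1.54 FPKM. All 12 genes of smooth muscle cells and pericytes were members, none with a difference over 2-fold between libraries (1 of 12 with TPM). Tagln (transgelin) had 337, 299.9 and 364 FPKM, Rgs5, a pericyte regulator of G protein signals, 192, 232 and 238 FPKM, and Acta2, the smooth muscle actin that myofibroblasts also make, 171, 175 and 211 FPKM. Their median SD of 0.17 log2 units was lower than the 0.21 of all members.

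Macrophage genes were members in 23 of 23 cases, with a median of 118 FPKM. Lyz2 (lysozyme) had 2219, 4339 and 1350.0 FPKM, and Apoe, the lipid carrier, 1318, 1674 and 1339 FPKM. Tyrobp, the adaptor of myeloid receptors, had 575, 516 and 301 FPKM. Complement C1qa and the receptor Trem2 had 127, 149.6 and 170.2 FPKM and 41.2, 46.4 and 59.7 FPKM. Cd163, a scavenger receptor for haemoglobin, was the lowest at 1.51, 1.74 and 2.15 FPKM. Gel 2 was the lowest library for 0 of the 23, against 31.8% of all members. With TPM the count was also 0 of 23, where Gel 2 was the lowest for only 4.83% of all members. The list's sum was 7884, 10084 and 6036 FPKM in Gel 1, 2 and 3.

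Neutrophil genes varied far more, with 9 of 17 measured genes as members, and all 9 differed over 2-fold between libraries, against 10.9% of all members. S100a9 and S100a8, the subunits of calprotectin, had 168, 279 and 50.9 FPKM and 169, 169.6 and 45.5 FPKM. Lcn2 (lipocalin 2), which binds bacterial iron carriers, had 95.8, 254 and 18.5 FPKM. Gel 3 was lowest in these 3 genes. Camp and Ngp, granule genes of immature neutrophils, followed another order. Camp had 12.2, 2.25 and 7.97 FPKM and Ngp 12.7, 2.58 and 5.53 FPKM, with Gel 2 lowest. Of the 9 members, Gel 2 was the lowest library for these 2 alone and Gel 3 for 6. Mpo, of the earliest granules, had 5.02, 0.451 and 4.25 FPKM and is not a member. Cxcr2, the chemokine receptor of mature circulating neutrophils, had 1.57, 8.68 and 0.888 FPKM. Over the list, the summed level differed 4.86-fold between libraries (5.06-fold with TPM).

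Genes of antigen presentation by class II and of mast cells had Gel 1 as the low library. For class II, 7 of 12 measured genes were members, and Gel 1 was the lowest and Gel 2 the highest for all 7, against 31.1% and 31.1% of all members. The same held with TPM, where these shares of all members were 81.8% and 54.1%. Cd74, the invariant chain, had 262, 520.5 and 425 FPKM, RT1-Ba 39.6, 165 and 125 FPKM, and RT1-Da 56.2, 119 and 91.1 FPKM. Second records with the Swiss-Prot entries of RT1-DMa and RT1-DMb were highest in Gel 3. LOC108348072 (entry of RT1-DMa) had 0.0797, 0.200 and 14.6 FPKM, and LOC108348139 (entry of RT1-DMb) 0.347, 0.823 and 4.48 FPKM. Xcr1 and Siglech, markers of dendritic cell types, lay below 1 FPKM in every library. Of 10 measured mast cell and basophil genes, 8 were members, and Gel 1 was lowest for 7 of them. With TPM it was lowest for 8 of 8, where it was lowest for 81.8% of all members. The mast cell proteases Cma1, Tpsab1 and Cpa3 had 8.95, 37.5 and 42.6 FPKM, 6.21, 22.3 and 27.3 FPKM, and 4.4, 23.3 and 23.4 FPKM. Gel 2 and Gel 3 lay close together in each of them.

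Of 16 measured T and NK cell genes 5 were members (8 without Gel 1), with a median of 6.84 FPKM, and Cd4, which macrophages of the rat also carry, was the highest at 54.8, 50.2 and 55.6 FPKM. Cd8a had 9.56, 12.6 and 3.22 FPKM, and the T cell receptor subunits Cd3d, Cd3e and Cd3g stayed below 1 FPKM in Gel 1. Cytotoxic Gzma, Gzmb and Prf1 lay below 1 FPKM in every library. Of 16 measured B and plasma cell genes 9 were members, with a median of 18.1 FPKM against 10.1 FPKM over all members, but the highest of these, Sdc1 (143, 116 and 88.1 FPKM) and Xbp1 (95.9, 115 and 122 FPKM), are used by many other cells. Jchain, which joins secreted antibodies, had 61.9, 133 and 42.3 FPKM. Vpreb1, of the B lineage, had 0.349, 1.17 and 2.31 FPKM and is not a member.

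Red cell transcripts separated Gel 2 from the others. Hbb, a beta globin gene, had 2651, 192 and 2977 FPKM in Gel 1, 2 and 3, and Hba-a2, the neighbour of Hba-a1, 2915, 129 and 1899 FPKM. Ahsp, the chaperone of free alpha globin, had 127, 1.35 and 44.6 FPKM. Alas2, the first enzyme of haem synthesis in red cells, had 52.0, 0.529 and 36.5 FPKM, and Klf1, the erythroid transcription factor, 17.1, 0.229 and 4.26 FPKM. Both of these are not members because of Gel 2. Of 18 measured erythroid genes 6 were members, which became 15 without Gel 2, and the list's sum was 13228, 750 and 9840 FPKM, a 17.6-fold range (12.6-fold with TPM, where Gel 3 was highest). Tfrc, the transferrin receptor that all dividing cells use, did not follow, with 115, 172 and 108 FPKM. Hba-a1 and Hba-a2 share a Swiss-Prot entry and reads cannot be assigned to one of the pair with certainty. Platelet genes were members in 4 of 12 cases. Pf4, which macrophages of the mouse also make, had 193, 174 and 102 FPKM, whereas Gp9 and Gp1ba, of the platelet adhesion receptor, lay below 1 FPKM in each library.

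Skeletal muscle transcripts separated Gel 3 from the others. Acta1, the actin of muscle fibres, had 107, 59.0 and 1.02 FPKM in Gel 1, 2 and 3, Mylpf, a fast myosin light chain, 61.7, 46.6 and 4.01 FPKM, and Tnnt3, fast troponin T, 43.5, 26.3 and 3.20 FPKM. Mb (myoglobin) and Ckm (muscle creatine kinase) had 31.0, 36.6 and 0.155 FPKM and 25.3, 16.6 and 0.306 FPKM. Gel 3 was the lowest library for all 7 muscle members (6 of 7 with TPM). The list's sum was 489, 361 and 59.6 FPKM, an 8.20-fold range (6.31-fold with TPM), and 15 of the 20 measured genes would be members without Gel 3. Des (desmin), which vessels share, moved least, with 56.5, 70.4 and 41.4 FPKM. Thick filament genes stayed low throughout, with Myh1 at 6.47, 2.32 and 0.0202 FPKM.

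Of the fat cell genes, 7 of 13 were members, and Adipoq, which fat cells alone secrete in quantity, had 2.0, 0.0567 and 1.01 FPKM and is not one. Fabp4, which endothelium and macrophages also make, had 220.5, 108 and 87.4 FPKM. Myelin genes were members in 3 of 11 cases (5 without Gel 3). Pmp22, a myelin protein that fibroblasts also express, had 40.7, 50.9 and 57.4 FPKM, while Sox10, a transcription factor that defines Schwann cells, lay below 0.1 FPKM in each library.

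**Figure D3:**
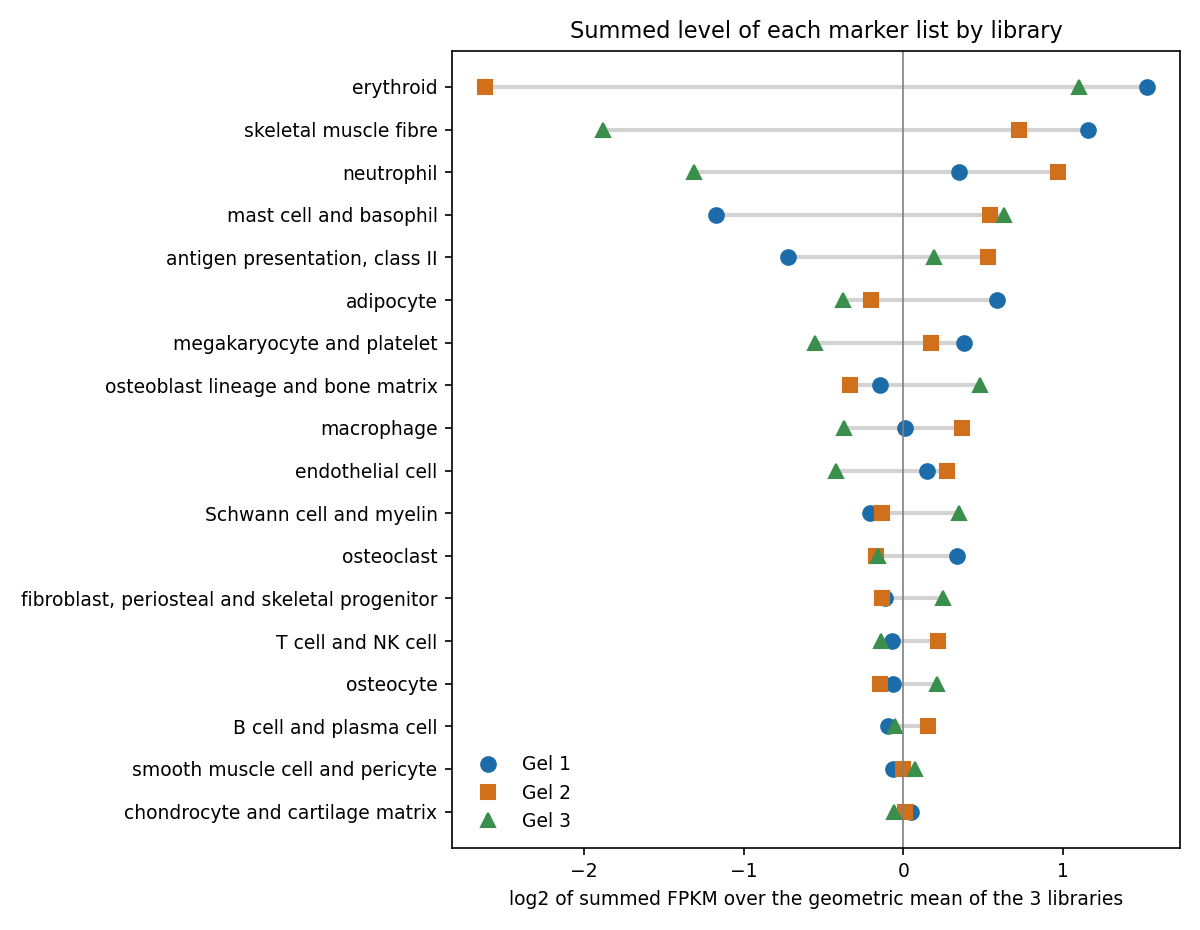
Summed FPKM of each list of cell type markers in Gel 1 (circles), Gel 2 (squares) and Gel 3 (triangles), over all measured genes of the list, as log2 of its ratio to the geometric mean of the 3 libraries. Erythroid genes span 17.6-fold, skeletal muscle genes 8.20-fold and neutrophil genes 4.86-fold, with a different library lowest in the first and the other two, while mural and cartilage sums lie within 1.10-fold.

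The part of these differences in the bone levels was not tested. Gel 3, the library with the highest bone and fibroblast sums, had the lowest muscle, neutrophil, endothelial and macrophage sums. By gene, however, Gel 1 was the lowest library for 12 of the 23 macrophage members and Gel 3 for 11. Lyz2, the highest gene of the macrophage list, had 2219, 4339 and 1350 FPKM in Gel 1, 2 and 3. Gel 2, lowest in bone genes, had the lowest erythroid sum and the highest neutrophil and class II sums. Gel 1 had the highest osteoclast, fat cell and muscle sums, and the lowest mast cell and class II sums. Under TPM the highest sum moved from Gel 1 to Gel 2 for osteoclast and muscle lists, and Gel 1 had the lowest bone and macrophage sums.

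Inflammatory cytokines and chemokines were members in 14 of 27 cases. Gel 2 was the highest library for 9 of the 14 and Gel 3 the lowest for 11 (10 with TPM), and 11 of the 14 (78.6%) differed over 2-fold, against 10.9% of all members. Ccl2 and Ccl7, which draw monocytes, had 37.2, 105 and 10.8 FPKM and 14.1, 65.6 and 8.87 FPKM. Il1b, the fever cytokine, had 7.52, 46.5 and 2.68 FPKM, and its natural antagonist Il1rn 39.4, 40.8 and 5.85 FPKM. Il6 and Cxcl1 are not members, with 0.595, 22 and 0.420 FPKM and 3.88, 50.6 and 0.0791 FPKM. Tnf was read at 0.0872 FPKM in Gel 3 and listed at 0 in the other libraries. Cxcl14 and Cxcl12, chemokines made by stromal cells, behaved otherwise: they had 47.8, 69.5 and 74.5 FPKM and 31.3, 42.0 and 62.3 FPKM, with Gel 1 lowest. Gel 2 also had the highest neutrophil sum, and the part of those cells in its cytokine levels was not tested.

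In the BMP and TGF-beta pathway 23 of 28 genes were members, against 11247 of 22237 protein-coding genes. Their median was 10.1 FPKM, as over all members. Among ligands Tgfb1 led with 119, 97.8 and 126 FPKM, ahead of Tgfb3 with 37.2, 17.6 and 68.6 FPKM, while Bmp2 and Bmp4, osteoinductive ligands, had 6.17, 5.97 and 6.63 FPKM and 6.11, 4.29 and 6.31 FPKM. Bmp7 and Gdf5 lay below 1 FPKM in each library. Among receptors Tgfbr2 had 82.6, 79.8 and 58.1 FPKM, and Bmpr1b lay below 1 FPKM. Of the targets, Id3 had 207, 219.5 and 269.6 FPKM and Id1 66.4, 76.8 and 45.8 FPKM. Bmp1, despite its name the protease that trims procollagen, had 79.9, 79.9 and 124 FPKM.

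In the Wnt pathway 20 of 32 genes were members, against 11247 of 22237 protein-coding genes. Their median of 9.17 FPKM was near the 10.1 FPKM of all members. The means of several secreted inhibitors stood above that of every measured ligand. Sfrp4, Sfrp2 and Wif1, which bind Wnt proteins, had 81.7, 62.8 and 36.7 FPKM, 16.9, 12.6 and 54.7 FPKM, and 31.2, 10.8 and 37.6 FPKM. The highest measured ligand was Wnt16, made in cortical bone of mice by osteoblasts, at 4.03, 11.2 and 21.6 FPKM, followed by Wnt5a at 9.58, 12.4 and 6.57 FPKM. The receptors Fzd2 and Fzd1 had 16.9, 20.9 and 36.9 FPKM and 18.6, 34.4 and 19.9 FPKM, and the co-receptor Lrp5 13.5, 13.9 and 17.2 FPKM. Axin2, a common target of the canonical pathway, had 0.780, 0.942 and 1.17 FPKM and is not a member. Wnt3a and Fzd8 were listed at 0.

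Among IGF, FGF, PDGF and VEGF genes 29 of 33 were members, with a median of 23.3 FPKM. Binding proteins of IGF took the first places, with Igfbp7 at 431, 470.2 and 507 FPKM and Igfbp4 at 356, 329 and 316 FPKM. Igfbp3 departed from that evenness, with 179 and 168 FPKM in Gel 1 and 2 and 45.6 FPKM in Gel 3. Igf1 had 30.4, 42.6 and 87.2 FPKM and its receptor Igf1r 1.67, 1.86 and 1.39 FPKM. Fgfr1 led the receptors at 80.8, 62.9 and 105 FPKM, and Vegfa, which drives vessel growth, had 22.3, 32.2 and 10.1 FPKM. Fgf2 and Fgf9 lay below 1 FPKM in each library.

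Hormone receptors bear on the ovariectomized model, in which the ligand of the oestrogen receptors is low. Esr1, oestrogen receptor alpha, had 0.768, 0.401 and 0.496 FPKM and is not a member, and Esr2 was listed at 0. Pgr, the receptor for progesterone, also lay below 1 FPKM in each library. Of 17 measured receptors 11 were members, against 11247 of 22237 protein-coding genes. Pth1r, the receptor for parathyroid hormone on osteoblasts, was the highest at 101, 60.7 and 129.9 FPKM, and Vdr, the vitamin D receptor, had 13.5, 11.1 and 21.8 FPKM. Esrra, an orphan receptor related to Esr1 that binds no oestrogen, had 31.7, 29.3 and 23.5 FPKM.

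General cell functions filled much of the upper profile. Cytosolic ribosomal proteins, 58 records from 55 of the listed symbols, were all members, with a median of 812 FPKM, and held 11.1% of the members' FPKM. Rpl41 had 2723, 2822 and 2375 FPKM, Rplp0 2509.8, 1962 and 1784 FPKM, and Rpsa 1774, 2006 and 1838 FPKM. Gel 1 was the highest library for 45 of the 58 records, and for 39 with totals that leave out mitochondrial-chromosome genes. With TPM it was the highest for 2 of 58, near its 3.23% of all members, and Gel 2 for 53. All 28 cytoskeletal genes were members, with a median of 423 FPKM, and none differed over 2-fold (2 of 28 with TPM). Vim (vimentin), the filament of mesenchymal cells, had 2918, 2506 and 2334 FPKM, Actb 2507, 2179.5 and 2282 FPKM, and Tmsb10, which binds actin monomers like Tmsb4x, 1658, 1879.9 and 1313 FPKM.

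Enzymes of glycolysis were members in 15 of 15 cases, with a median of 151 FPKM. Gapdh had 695, 592 and 418 FPKM, Aldoa 545, 422 and 284 FPKM, and Ldha 466, 431 and 226 FPKM. Gel 3 was the lowest library for 14 of the 15 (12 with TPM), while Gel 1 was the highest for 11, and for 0 with TPM. Tpi1, an enzyme that every glycolytic cell needs, was read at 2.06, 4.12 and 1.01 FPKM, against 35.5, 30.6 and 42.1 FPKM for LOC100911515 with the same Swiss-Prot entry. Of 17 measured genes of iron storage and redox defence 13 were members. Gpx3, a secreted peroxidase, had 1923, 1463 and 1784 FPKM, and Hmox1, which breaks down haem, 100.3, 242 and 132 FPKM, highest in Gel 2. Fth1, the ferritin heavy chain, was listed at 0 while AABR07054189.1, a processed pseudogene with its Swiss-Prot entry, had 64.9, 79.4 and 41.2 FPKM. Fth1 is a gene that cells in general use, so a listed 0 is given here as the value of the table and not as a lack of the transcript.

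Genes of cell division were members in 23 of 23 cases with a median of 10.6 FPKM, near the 10.1 FPKM of all members. Pcna, the sliding clamp of replication, had 70.4, 59.9 and 69.2 FPKM, Cdk1 23.7, 20.4 and 16.5 FPKM, Top2a 14.2, 11.8 and 11.7 FPKM, and Mki67 11.3, 7.26 and 7.61 FPKM. Gel 1 was the highest library for 21 of the 23, for 20 with totals that leave out mitochondrial-chromosome genes, and for 5 with TPM. Differences over 2-fold were found in 1 of 23 genes, against 10.9% of all members: Rrm2 had 20.5, 11.9 and 8.37 FPKM. The median SD was 0.26 log2 units, against 0.21 over all members.

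Of 1403 protein-coding genes that the table annotates as transcription factors 729 were members, a share near the 11247 of 22237 among all protein-coding genes. Their median was 6.54 FPKM, below the 10.1 FPKM of all members, and 9 of them reached a mean of 100 FPKM. Among the highest, chosen after their values were seen, were Ybx1, a cold shock factor that also binds mRNA, at 641, 549 and 422 FPKM, and the Id3 described above. Jund, of the AP-1 complex, had 211, 169.9 and 246 FPKM. Cebpb and Cebpd, factors of the acute phase, had 88.7, 261 and 63.0 FPKM and 43.3, 136 and 51.2 FPKM. Both were highest in Gel 2, the library with the highest inflammatory levels. Twist1 and Prrx1, of limb mesenchyme, had 52.9, 46.4 and 78.3 FPKM and 68.5, 74.9 and 95.7 FPKM, highest in Gel 3. Spi1 (PU.1), of the myeloid line, had 71.5, 57.5 and 36.4 FPKM. By family, members that carry a gene symbol numbered 44 of 52 bZIP genes and 46 of 102 bHLH genes. They numbered 233 of 476 genes with C2H2 zinc fingers and 46 of 222 homeobox genes. Members without a symbol are left out of these counts but not of the family totals, so each share is a lower limit. Among all protein-coding genes, with or without a symbol, 11247 of 22237 were members.

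The 3 libraries held most members at similar levels. The median SD of log2 FPKM was 0.21, and the highest library was 1.32 times the lowest in the median member. Counting error alone would give a median SD of 0.074, and in 1237 members (11%) the SD was below the counting error. Differences over 2-fold were found in 1224 members (10.9%), over 4-fold in 183 and over 10-fold in 49. With members chosen anew from the remaining libraries, the count over 2-fold was 832 without Gel 1, 706 without Gel 2 and 448 without Gel 3. A gene's ratio over fewer libraries cannot exceed its ratio over all 3, so a fall from 1224 follows in part from leaving out any library. The common dispersion of edgeR, over 13520 genes, corresponded to a coefficient of variation of 26.7% beyond counting error. The spread was widest in the lowest class, with a median SD of 0.31 in the 580 members under 2 FPKM, and narrowest with 0.17 in the 5025 members of 10 to 100 FPKM. It was 0.24 in the 52 members of at least 1000 FPKM, where the median counting error was 0.012.

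**Figure D4:**
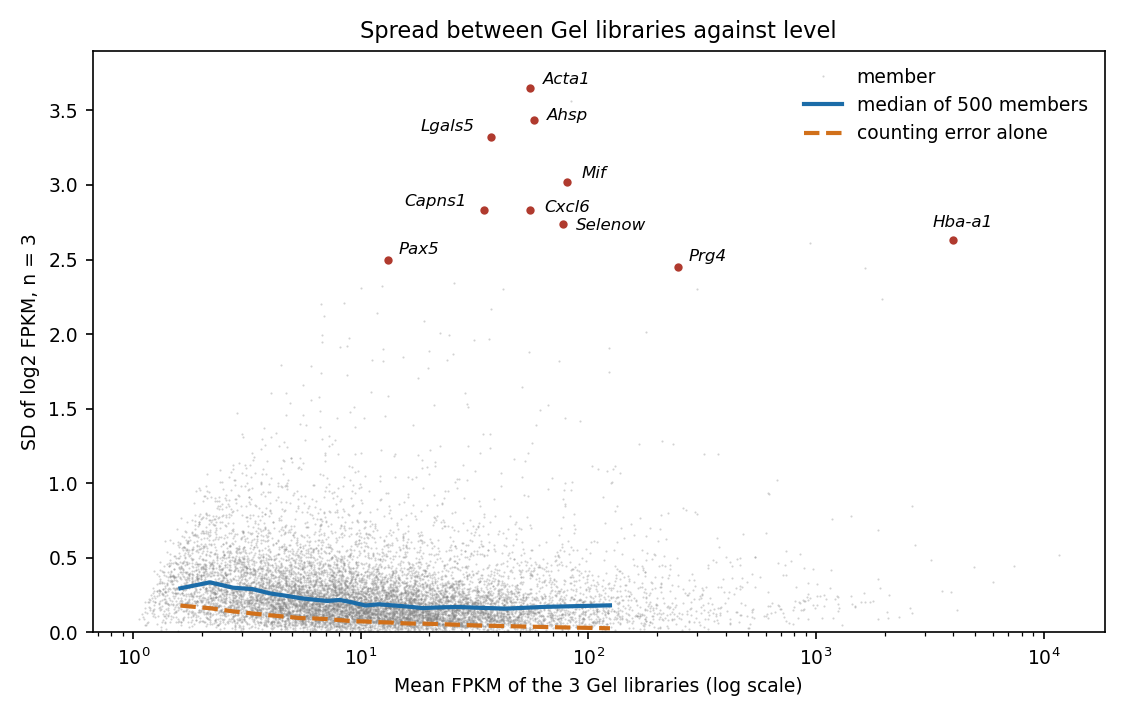
SD of log2 FPKM over the 3 Gel libraries of each member (points) against its mean FPKM on a log scale, with the running median over 500 members (solid line) and the running median of the SD that counting error alone gives (dashed line). Named are the 10 members of largest SD at a mean of at least 10 FPKM that carry a gene symbol, from Prg4 at 2.45 to Acta1 at 3.65 log2 units, where the median member lies at 0.21.

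The 10 largest spreads were taken among members that carry a gene symbol and a mean of at least 10 FPKM. Acta1, Ahsp and Hba-a1, given above, belong to muscle and red cells, and so does Lgals5, a galectin of rat red cell precursors, with 71.0, 1.02 and 39.9 FPKM. Cxcl6, a chemokine that draws neutrophils, had 12.5, 150.2 and 3.11 FPKM, with Gel 2 high. Pax5, which commits cells to the B lineage, had 1.23, 3.15 and 35.2 FPKM, with Gel 3 high, and Cd79b, a subunit of the B cell receptor, 1.77, 6.75 and 11.3 FPKM. Prg4 was low in Gel 3 as given above.

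In 3 further genes of wide spread, which stand in none of the lists, 1 library departed from the others. Mif, a cytokine that most cells make, had 225, 3.82 and 12.6 FPKM. Capns1, the small subunit of calpains, had 1.71, 47.0 and 55.5 FPKM, and Selenow, a small selenoprotein, had 8.80, 216 and 7.41 FPKM. They rest on 23 to 1132 counts for Mif, 18 to 592 for Capns1 and 27 to 998 for Selenow, so the gaps exceed counting error. Other records carry the Swiss-Prot entry of Capns1 and of Selenow, at no more than 3.33 and 2.50 FPKM in any library, and a part of read assignment in these gaps was not tested.

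The 10 smallest spreads were taken at the same minimum. Oaz2, which restrains polyamine synthesis, had 98.4, 99.0 and 98.7 FPKM, Paip2, a regulator of the poly(A)-binding protein, 80.5, 81.1 and 81.3 FPKM, and Cct7, a subunit of the chaperonin for actin and tubulin, 59.4, 59.0 and 59.7 FPKM. Cul1, the scaffold of a ubiquitin ligase, had 39.5, 39.7 and 39.3 FPKM, and Dnaja3, a mitochondrial chaperone, 17.5, 17.4 and 17.5 FPKM. Each was closer between libraries than its counting error, so they are not shown to be the steadiest genes. Mospd2, Fam216a, Zfp637, Abhd17b and Smg5 complete the 10.

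**Figure D5:**
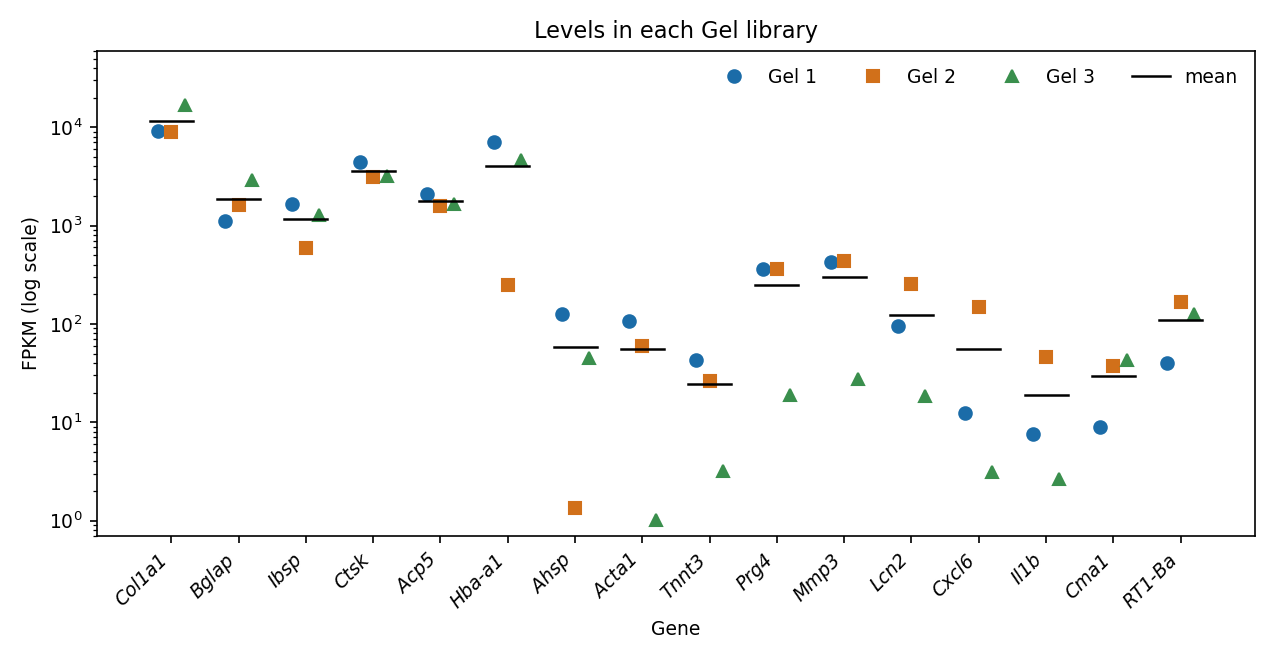
FPKM (log scale) of 16 named genes in Gel 1 (circles), Gel 2 (squares) and Gel 3 (triangles), with the mean of the 3 libraries as a bar. Col1a1 and Ctsk lie within a factor of 2, while Hba-a1 and Ahsp are low in Gel 2, Acta1, Tnnt3, Prg4 and Mmp3 are low in Gel 3, Cxcl6 and Il1b are high in Gel 2, and Cma1 and RT1-Ba are low in Gel 1.

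Levels of single records are less certain where near-identical copies exist. Of the members, 1258 (11.2%) share a Swiss-Prot entry in the table's descriptions with another record, and so do 60 of the 100 highest and 43 of the 183 that differed over 4-fold. Whether counting used strand is not known, and reads of overlapping antisense genes may have been mixed.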

How the data were processed

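RNA was measured by poly-A RNA-seq from 1.3 µg of total RNA with fragments of 370 to 420 bp, per the labels' protocols. The authors deposited raw read counts per gene and FPKM per gene; per the submitters' processing notes the tools, in alphabetical order and with no roles given, were DESeq2 1.20.0, edgeR 3.22.5, fastp, featureCounts 1.5.0-p3, HISAT2 2.0.5 and StringTie 1.3.3b, and no build is named. In the deposited FPKM, the library size of each Gel library (14.5, 17.3 and 13.7 M) equals its DESeq2 size factor over all 6 libraries times their geometric mean total. FPKM rests on the deposited gene length.

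A member is a protein-coding gene off the mitochondrial chromosome with at least 1 FPKM in each Gel library. Members and gene lists were chosen with earlier results of these data known, and no group was compared. Of 644 list symbols 620 were found. The 11692 blank rows and 2 unnamed mean columns were not used. Spread is the SD of log2 FPKM, and the counting error comes from the counts. The common dispersion was fitted with edgeR 4.0.16 in R 4.3.3, and size factors with DESeq2 1.42.0; Python 3.11.15, pandas 2.3.3, numpy 2.4.6 and matplotlib 3.10.9 did the rest. Spread and dispersion code was tested on simulated data.

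Named genes were the 30 of highest mean, up to 6 of highest mean per list, list genes that are not members, the 10 of largest and the 10 of smallest spread at a mean of at least 10 FPKM, and those nearest the threshold. Outside that rule, the following were chosen after their values were seen: Alpl, Bmp2, Bmp4, C1qa, Cd163, Cd79b, Col1a2, Hmox1, Ifitm5, Igf1, Igf1r, Il1b, Il1rn, Lox, Lrp5, Mki67, Mmp3, Mmp10, Phospho1, Prrx1, Runx2, Sost, Sox9, Sp7, Top2a, Tpi1, Trem2, Vegfa, Wnt5a, Wnt16, the transcription factors and the second records of shared Swiss-Prot entries. Intervals are Wilson 95% intervals and, like the counting error, cover counting error only. Other scalings (TMM, DESeq2, TPM), thresholds, pseudocounts and leaving out each library were tried. Some genes of the lists are not reported here by name.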

Additional observations from a re-analysis of the deposited data

How the results depend on the processing

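No paired analysis was possible because no groups were compared and the results come from no test. Members whose highest library was over 2 times the lowest numbered 1898 with a mean FPKM of at least 1 as the threshold and 2635 with TPM, against 1224 here, and 448 to 832 without 1 library. The median spread of 0.21 log2 units was 0.36 with TPM, 0.18 on the log2(FPKM + 1) scale, 0.17 among members of mean FPKM at least 10, and 0.15 to 0.19 without 1 library. The median deviation of the members was -0.013 in Gel 1 and 0.0062 in Gel 2 with TMM, and -0.0046 in Gel 1 and -0.0016 in Gel 2 with DESeq2 size factors. It was -0.32, 0.19 and 0.13 in Gel 1, 2 and 3 with TPM. With totals that leave out mitochondrial-chromosome genes it was 0.021, 0.049 and -0.074. Without 1 library it was 0.0021 to 0.0028 in Gel 1, -0.0021 to 4.5e-05 in Gel 2 and -0.0028 to -4.5e-05 in Gel 3. The common dispersion, a coefficient of variation of 26.7% here, was 35% with no filter other than a count above 0, 23.3% among members only, and 23.8 to 29.0% without 1 library. CCAAT stood in 54.3% of the windows of the 50 highest members. Leaving out any 1 library cannot raise a gene's ratio of highest over lowest, and it lowers the median SD at an equal true spread. Apart from that, the cause of these shifts was not tested. Over all summary values, 91 settings stayed within the limits for an unchanged value and 25 did not. With 3 libraries an SD is imprecise, and a member may rest on as few as 3 counts in 1 library. Protein lengths were not computed, as no protein table was used here.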
